A study of Mus musculus with 6 samples.

Results

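In the dissected cardiogenic region of E10.5 mouse embryos, 1568 single cells carried transcripts of the homeobox genes Meox1 or Meox2 with few or no transcripts that mark the main other lineages. They were chosen by unique molecular identifiers (UMIs), each of which marks 1 captured RNA molecule. A barcode needed at least 2500 detected genes and at most 10% mitochondrial UMIs, which left 35962 of 53362 barcodes. It then needed at least 3 UMIs of Meox1 and Meox2 together. It also had to hold fewer than 3 UMIs of Dlx1 plus Dlx2 (neural crest mesenchyme), fewer than 3 of Epcam (epithelium), fewer than 5 of Tnnt2 (heart muscle), fewer than 2 of Pecam1 (endothelium) and fewer than 2 of Myf5, Myod1 and Musk together (skeletal muscle). The chosen cells made up 4.36% of the retained cells (95% exact binomial interval, 4.15 to 4.58%). These intervals, and the Poisson intervals behind each expression level, cover counting error only. Of the 3165 retained cells with at least 3 Meox UMIs, 1597 were removed by the limits on other lineages, and 1101 of these exceeded the Dlx limit.

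All embryos were wild type on the C57BL/6 strain. The cardiogenic region is the part of the embryo that holds the heart and the tissue around it. The labels give 3 samples from females pretreated with vehicle and normal in blood glucose, and 3 from females made hyperglycemic with streptozotocin (STZ), a toxin of insulin-producing cells. In both groups the females were mated to males with normal blood glucose. The count matrix pools 6 libraries told apart by a barcode suffix that nothing used here pairs with a sample, so vehicle and STZ could not be compared. Libraries are therefore described one by one, with no test between them and no p-value.

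Paraxial mesoderm is the tissue beside the neural tube. In the trunk it segments into somites, whose ventral part, the sclerotome, gives vertebrae and ribs, and whose dorsal part, the dermomyotome, gives dermis and muscle. In the head it stays unsegmented and gives muscle and connective tissue. Meox1 and Meox2 are transcription factors needed to pattern somites. They are not restricted to them, since some limb, head and heart mesenchyme also carries them. Foxd1 is a forkhead transcription factor best known from kidney stroma and the developing retina, and it split the cells into those with at least 1 Foxd1 UMI (Foxd1-positive) and those with 0 (Foxd1-negative).

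Libraries 1 to 6 gave 122, 248, 122, 348, 459 and 269 Meox-selected cells. These were 1.89, 4.13, 2.49, 6.13, 6.43 and 4.64% of the retained cells of each library. Libraries 1 and 3 were thus the lowest and libraries 4 and 5 the highest. Median depth per Meox-selected cell lay between 27355 and 32339.5 UMIs over the libraries, and median detected genes between 5841 and 6427. Of these cells, 52 had a barcode sequence that also occurs in another library, and none shared one with another Meox-selected cell. A doublet score marked 77 of the 1568, beside 1746 of all 35962 retained cells (4.86%), a share that the scoring fixes. In libraries 1 to 6 it marked 5, 22, 5, 11, 18 and 16 Meox-selected cells.

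Meox1 (chromosome 11, 101877510 to 101894374, GRCm38) was the more abundant of the pair by level, given as UMIs per 1000000 UMIs of the same cells (CPM). Its level in libraries 1 to 6 was 96.2, 143, 81.1, 156, 175 and 153 CPM. Meox2 (chromosome 12, 37108540 to 37179534) stood at 60.3, 45.1, 64.1, 44.5, 82.3 and 52.0 CPM. Meox1 was thus lowest in libraries 1 and 3, while Meox2 was highest in library 5. Of the 1568 cells, 874 held Meox1 UMIs alone, 188 held Meox2 UMIs alone and 506 held both. The median Meox sum was 5 UMIs and the highest 59. At the threshold, 497 cells lay just inside with 3 Meox UMIs, and 901 cells that met every other limit lay just outside with 2.

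Foxd1 (chromosome 13, 98354242 to 98359305) was detected in 636 of the 1568 cells, or 40.6% (38.1 to 43.0%). By library the shares were 11.5, 31.9, 31.2, 40.5, 60.4 and 32.3%. Library 1 was the lowest, with 14 Foxd1-positive cells, and library 5 the highest, with 277. The Foxd1 level over all Meox-selected cells had the same extremes, at 7.50, 83.9, 63.1, 124, 195 and 83.9 CPM. The split is a detection call and so marks a range of levels, not a cell type. Near its limit lay 78 cells with exactly 1 Foxd1 UMI, while 134 had 2 to 4, 424 had at least 5 and the highest had 46. Foxd1-positive and Foxd1-negative cells had similar median depths, 29037.5 and 28350.5 UMIs.

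The share was also taken at equal depth, with each cell thinned to 10000 UMIs and 19 shallower cells left out. It was then 33.5% (31.2 to 35.9%), and 6.56, 24.0, 22.5, 33.0, 52.6 and 27.3% in libraries 1 to 6. At that depth Foxd1 was found in 9.08% of a sample of 6000 other retained cells. It was found in 1.25% of the 3447 cells with at least 20 Tnnt2 UMIs, heart muscle cells that should lack it (2.90% unthinned, with a median depth of 43409.5 UMIs). That heart muscle background was pooled over the libraries and not taken within each. Foxd1 detection in Meox-selected cells of each library lay above this pooled value, library 1 included, whose interval at equal depth was 2.87 to 12.5%. The library 1 interval also held the pooled 9.08% of other retained cells.

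**Figure D1:**
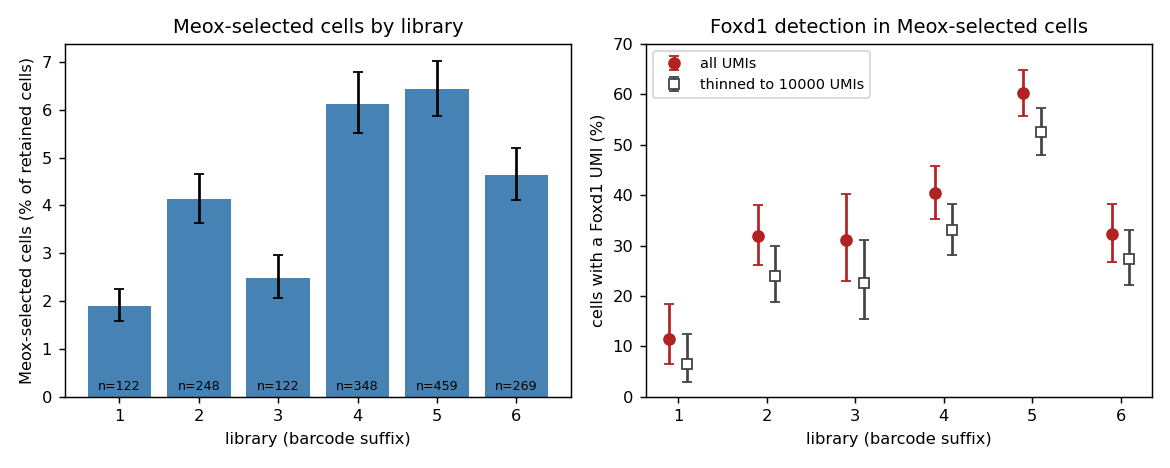
Meox-selected cells as a percentage of retained cells in libraries 1 to 6 (bars, with 95% exact binomial intervals), and the percentage of Meox-selected cells with a Foxd1 UMI with all UMIs or thinned to 10000 UMIs (points). Library 5 is highest on both measures, and library 1 has the lowest Foxd1 share at 11.5%.

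Genes of somite and other mesoderm were followed across the range of Meox counts, in retained cells that met the limits on other lineages. The 6 libraries were first pooled. The somite genes Tcf15 and Pax3 are also higher in Meox-selected cells than in other retained cells. These steps are therefore a description and do not test the name paraxial mesoderm. With 0 Meox UMIs, Tcf15 (paraxis, a somite transcription factor) stood at 2.44 CPM. It stood at 28.2 CPM in cells with 3 Meox UMIs and 113 CPM in cells with 10 or more. Pax3, a factor of the dermomyotome, stood at 1.47 CPM with 0 Meox UMIs and at 40.7, 46.3, 79.5 and 77.7 CPM in cells with 3, 4, 5 to 9 and 10 or more. Isl1, a marker of second heart field and pharyngeal mesoderm, stood at 65.5 CPM with 0 Meox UMIs, 74.3 CPM with 3 and 19.5 CPM with 10 or more. Median depth was similar at each step, from 27451 to 30658 UMIs.

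Foxd1 detection in the same pooled steps was 20.9, 26.0 and 26.1% in cells with 0, 1 and 2 Meox UMIs, 31.4 and 31.1% with 3 and 4, 42.5% with 5 to 9 and 66.1% with 10 or more. Foxc1, a forkhead factor of somite and head mesoderm, stood at 21.4 CPM with 0 Meox UMIs, 44.4 CPM with 3 and 76.6 CPM with 10 or more. The steps draw on the libraries unequally, so they were also taken within each library.

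In libraries 1 to 6, Foxd1 was found in 9.74, 9.54, 20.7, 28.3, 28.9 and 26.3% of cells with 0 Meox UMIs, and in 11.6, 38.3, 33.3, 47.8, 69.6 and 38.7% of cells with 5 or more. In libraries 1 and 3 the 95% intervals of these shares overlapped. Tcf15 was higher with 5 or more Meox UMIs than with 0 in each library, at 30.8 to 119 CPM against 1.82 to 3.58 CPM. Pax3 was higher with 5 or more than with 3 to 4 in each library except library 3, at 16.6 against 37.3 CPM there. In library 4 the values were close, at 41.89 against 40.25 CPM. Isl1 had no common direction. With 5 or more Meox UMIs it stood at 139.8, 39.2, 150.4, 34.5, 19.0 and 40.2 CPM, against 45.0 to 77.6 CPM with 0, higher in libraries 1 and 3 and lower in the others.

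**Figure D2:**
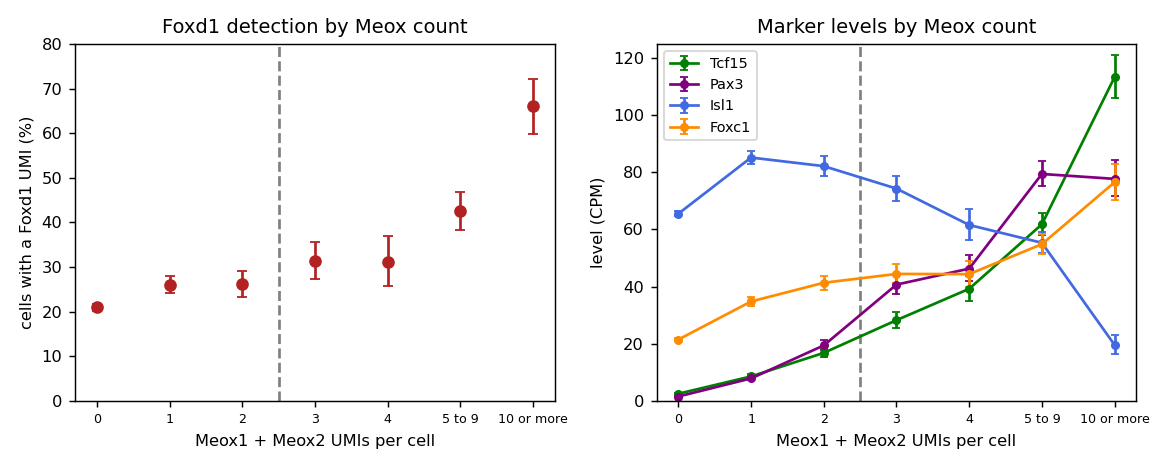
Percentage of cells with a Foxd1 UMI (with 95% exact binomial intervals), and the levels of Tcf15, Pax3, Isl1 and Foxc1 in CPM (with 95% exact Poisson intervals), by the number of Meox1 plus Meox2 UMIs per cell (0 to 10 or more). The 6 libraries are pooled. The dashed line marks the rule's minimum of 3, and Isl1 has its lowest level, 19.5 CPM, in the step with most Meox UMIs.

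Set against all other retained cells, 14 of 9171 genes (0.153%) were higher in Meox-selected cells by a median log2 difference of at least 2 and higher in each of the 6 libraries. In the other direction 161 genes (1.76%) were lower by that rule. The cells were chosen from this same contrast, so these counts are a description. The 14 were Meox2, Pax3, Pcp4, Meox1, Lbx1, Fap, Tcf15, Tmem132d, Hoxd3, Pid1, Scn3a, Sim1, Astn2 and Sorcs3. Among them Pax3 stood at 61.3 CPM against 5.08 CPM, Tcf15 at 55.8 against 7.57 CPM, and Lbx1, a factor of migrating limb and tongue muscle precursors, at 20.3 against 1.59 CPM. The other cells mix many types. Those with myogenic transcripts, described below, held more of these genes when pooled, with Pax3, Tcf15 and Lbx1 at 114, 104 and 40.9 CPM. Foxd1 itself was not among them, with a median log2 difference of 1.99, just under 2. Its level in Meox-selected cells was uneven, from 7.50 CPM in library 1 to 195 CPM in library 5.

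Markers of the cardiomyocytes, endothelium and epithelium that the rule limits were low in Meox-selected cells, while those of neural crest mesenchyme as a list were not. The summed level of 9 cardiomyocyte genes was 25.6 to 56.0 CPM over the libraries, against 2790 to 4840 CPM in the other retained cells. The 8 endothelial genes summed to 25.6 to 43.6 CPM against 109 to 242 CPM, and the 8 epithelial genes to 18.3 to 39.1 against 380 to 513 CPM. No gene of the first 2 lists was at 0 and 1 of the epithelial genes was. The 13 genes of neural crest mesenchyme summed to 526 to 661 CPM against 500 to 530 CPM, with none called in either direction and none at 0. The limited genes Dlx1 and Dlx2 stood at 2.58 and 4.01 CPM against 13.8 and 18.4 CPM, and Twist1 and Prrx1, mesenchymal factors that mesoderm also carries, at 292 and 211 CPM against 169 and 118 CPM. Other mesoderm was not removed to the same extent. The 14 genes of second heart field and lateral plate mesoderm summed to 274 to 567 CPM against 517 to 633 CPM, and their ranges overlapped. The 20 somite genes summed to 309 to 675 CPM against 111 to 144 CPM, with no overlap, as the rule's own genes are among them.

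Clustering of the 1568 cells on their own gave 12 subclusters. The genes named for each are those that set it apart, and so are a description of the clusters and not a finding about them. Foxd1, Meox1 and Meox2 were not left out of the clustering and could shape it. Their levels and shares by subcluster are therefore a description too. Subclusters are kept as numbers, since the name paraxial mesoderm rested on Meox1 and Meox2 alone. Subclusters 1, 9 and 11 held 417 cells, 26.6% of the total, and carried 89.9% of the Tcf15 UMIs, 94.6% of the Pax3 UMIs, 93.2% of the Pax1 UMIs and 96.2% of the Uncx UMIs. These 4 genes were picked from the somite list of 20, and not all of its members did the same. Foxc1 and Tbx18 were at 13.9 and 0.604 CPM in subcluster 9 and at 10.8 and 0.633 CPM in subcluster 11, against 131 and 87.2 CPM in subcluster 4. The 3 subclusters were grouped by their leading genes, which include Pax1, Uncx and Pax3, so these shares are a description and do not test the name. Subcluster 1 alone held 92.3% of the Pax1 UMIs and 1.79% of the Pax3 UMIs. The whole is called Meox-selected cells here.

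Subcluster 1 (270 cells) was led by Pax1, a sclerotome factor, at 108 CPM. Uncx, a factor of the caudal part of each somite, was also a leading gene at 39.3 CPM, but subcluster 11 held more, at 48.8 CPM. Tcf15 stood at 76.7 CPM and Meox2 at 163 CPM in subcluster 1. Foxd1 was detected in 97.8% of its cells, at 344 CPM. In the libraries that hold such cells Foxd1 was nearly level, at 341, 352, 349 and 319 CPM in libraries 2, 4, 5 and 6. Pax1 was not, at 38.4, 50.2, 156 and 35.7 CPM, with library 5 the highest. Uncx was not level either, at 6.07, 18.3, 47.5 and 54.9 CPM. Subcluster 1 had 0, 33, 0, 39, 160 and 38 cells in libraries 1 to 6, so 160 of 270 came from library 5. A count of 0 among the 122 cells of library 1 or library 3 allows a share of up to 2.46%.

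Subclusters 9 and 11 carried dermomyotome genes. Subcluster 9 (97 cells) was led by Lbx1 at 256 CPM and Pax3 at 659 CPM. It also held Met, the receptor that guides migrating muscle precursors, at 99.4 CPM and Tcf15 at 385 CPM. Subcluster 11 (50 cells) was led by En1 at 116 CPM, Dmrt2 at 148 CPM and Pax7 at 60.2 CPM, all known from the dermomyotome, with Sim1 at 173 CPM and Tcf15 at 325 CPM. Foxd1 was found in 36.1% (26.6 to 46.5%) of subcluster 9 and 22.0% (11.5 to 36.0%) of subcluster 11, at 30.5 and 25.3 CPM. Of the 3 subclusters rich in Tcf15, the 1 with Pax1 was therefore the 1 with most Foxd1, and the 2 with most Tcf15 held little of it. Subcluster 9 had cells in all 6 libraries, with 7, 21, 5, 17, 34 and 13. Subcluster 11 had 0, 1, 0, 4, 31 and 14.

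Subcluster 4 (153 cells) was the other Foxd1-rich group, with Foxd1 in 87.6% of cells at 388 CPM. The genes that set subclusters 1, 9 and 11 apart were low in it. Tcf15 stood at 13.5 CPM, Pax1 at 4.88 CPM and Uncx at 1.11 CPM, and no Pax3 UMI was counted. It held Tbx1, a regulator of pharyngeal and head mesoderm, at 202 CPM, against 50.4 CPM in subcluster 1. Some other genes of the somite list were higher than in subcluster 1, over the libraries and in each of libraries 4, 5 and 6, where both subclusters held at least 10 cells. Foxc1 stood at 131 against 108 CPM, Foxc2 at 55.9 against 26.4 CPM and Tbx18 at 87.2 against 26.6 CPM. Foxc2 was close in library 6, at 28.3 against 27.9 CPM. Foxf2 (45.7 CPM) and Lum, a proteoglycan gene (119 CPM), were also present. It carried 57.1% of the Cyp26a1 UMIs and 82.9% of the Cyp26c1 UMIs of all Meox-selected cells, genes for enzymes that degrade retinoic acid. Hoxd3 was lower there, at 10.9 CPM, than in subcluster 1, at 52.6 CPM. Its cells numbered 0, 7, 9, 59, 49 and 29 in libraries 1 to 6.

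Together, subclusters 1 and 4 held 27.0% of Meox-selected cells, 62.6% of the Foxd1-positive ones and 79.7% of the Foxd1 UMIs. Subcluster 8 (121 cells) had a moderate Foxd1 share, 57.0% (47.7 to 66.0%), at 106 CPM. Its leading genes included Foxf1 (277 CPM), Aldh1a2 (165 CPM), an enzyme that makes retinoic acid, Tbx5 (49.0 CPM), and Cxcl13 (135 CPM), with Osr1 at 123 CPM, genes known from lateral plate and posterior heart field mesoderm. In library 3 it held 25 of 122 cells, the largest share of any library, and 19 of the 38 Foxd1-positive cells there.

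Foxd1 was rare in 4 subclusters with genes of pharyngeal or cardiac mesoderm. Subclusters 3, 6, 7 and 12 together held 472 cells (30.1%), 4.09% of the Foxd1-positive cells, 81.4% of the Isl1 UMIs of all Meox-selected cells (42.6% in subcluster 7 alone). Subcluster 3 (165 cells) was led by Shox2 at 238 CPM and held Tcf21 at 165 CPM and Tbx1 at 203 CPM. Subcluster 6 (142 cells) held Hand1 at 87.3 CPM, Nkx2-5 at 27.7 CPM and Isl1 at 194 CPM, all regulators of heart precursors. Subcluster 12 (37 cells) was led by Igfbp7, Pdlim3 and Tbx20, a heart T-box factor at 818 CPM. Foxd1 was detected in 9.09, 2.82 and 2.70% of these cells.

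Subcluster 7 (128 cells) held more Meox2, at 175 CPM, than Meox1, at 13.4 CPM, with the libraries pooled. Each other subcluster held more Meox1 when pooled, but subcluster 8 held 79.1 CPM of Meox2 and 15.2 CPM of Meox1 in library 3. Its leading genes were Lhx2 (244 CPM, 91.5% of all its UMIs), a factor of pharyngeal muscle precursors, Tlx1 (346 CPM) and Foxl2 (83.9 CPM), with Isl1 at 307 CPM and Tcf21 at 173 CPM. Foxd1 was found in 4.69% of its cells (1.74 to 9.92%). It held 39, 19, 23, 9, 20 and 18 cells in libraries 1 to 6, or 32.0, 7.66, 18.9, 2.59, 4.36 and 6.69% of the Meox-selected cells. The 2 libraries without subcluster 1 were thus those with the highest share of subcluster 7.

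The remaining subclusters were 2, 5 and 10. Subcluster 2 (166 cells, 32.5% with Foxd1) held Lmx1b at 15.7 CPM and the retinoic acid binding protein gene Crabp1 at 686 CPM, against 1800 and 2780 CPM in subclusters 5 and 10. Subclusters 5 and 10 held 239 cells (15.2%) with transcripts of other cell types. Tfap2b, a neural crest factor, stood at 110 and 71.5 CPM, and Dlx2 at 19.7 and 25.4 CPM, under the limit per cell. The embryonic globin gene Hbb-y stood at 3640 and 9800 CPM. In subcluster 5 the Hbb-y level was 54.5, 8950, 88.4, 35.7, 11300 and 45.7 CPM in libraries 1 to 6, so the high value came from libraries 2 and 5. In subcluster 10 it was 35.1, 72.1 and 98.3 CPM in libraries 2, 4 and 6, so its high value came from the other libraries, which held 4, 8 and 8 of its 87 cells. Subcluster 10 also held Tcf15 at 36.1 CPM and Pax1 at 15.4 CPM. Its median depth was 13509 UMIs, the lowest of the 12, so the rule's minimum of Meox UMIs is a higher level in these cells. The part of neural crest or red cell RNA in these subclusters was not tested.

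**Figure D3:**
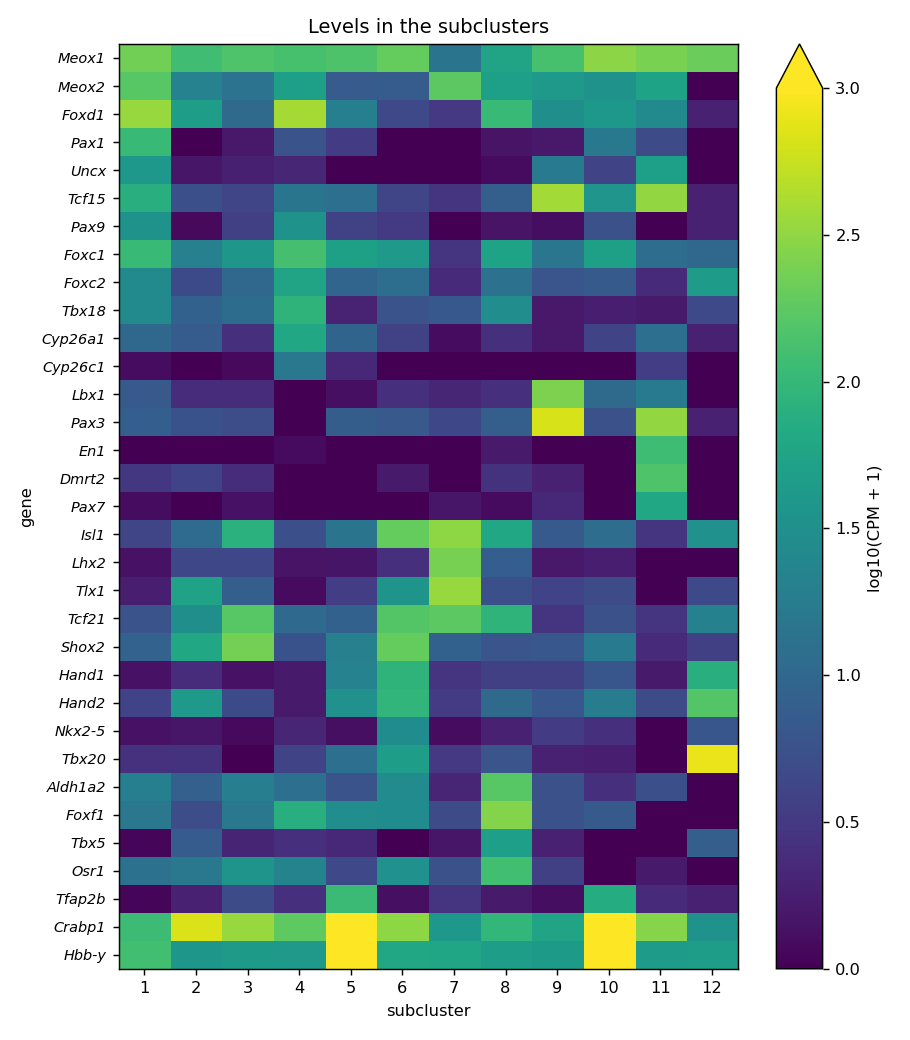
Levels of selected genes (rows) in the 12 subclusters of Meox-selected cells (columns), as log10(CPM + 1), with colours capped at 3. Pax1 is high in subcluster 1, Uncx in subclusters 1 and 11, Pax3 and Tcf15 in subclusters 9 and 11, and Lhx2 and Tlx1 in subcluster 7.

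**Figure D4:**
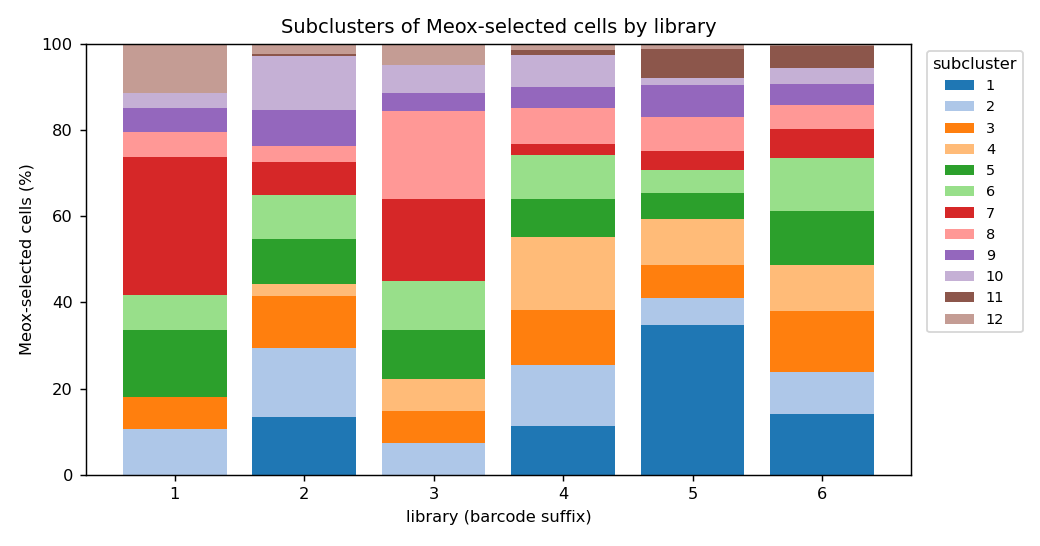
Share of Meox-selected cells in each of the 12 subclusters, in percent, for libraries 1 to 6 (stacked to the whole). Subcluster 1 makes up 34.9% of library 5 and has no cell in libraries 1 and 3.

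The Foxd1-positive and Foxd1-negative cells were then compared within each library. Library 1 was left out because it had 14 Foxd1-positive cells, under the minimum of 20. UMIs were summed per library and side, and each difference is Foxd1-positive minus Foxd1-negative on the log2(CPM + 2) scale, which understates changes of low genes. A gene was called if the median over libraries 2 to 6 was at least 1 in size and every library had the same sign. Of 8980 genes with at least 10 CPM on either side, 94 (1.05%) were higher and 1.17% were lower in Foxd1-positive cells. The median of all 8980 was 0.036. A gene high on 1 side alone passes the minimum through that side, so counts and medians over listed genes that passed are a description of those genes and not of the whole list. Foxd1 shares differed between subclusters, so differences within and between them cannot be told apart in these sums. Without subcluster 1, 86 genes were higher and 80 lower, of which 67 and 73 were among those called with it.

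Some genes of the somite and sclerotome lists were higher in Foxd1-positive cells, while Tcf15, Pax3, Pax1 and Meox1 were not called. Of 20 listed somite genes 11 passed the level minimum, and 6 were called higher and 0 lower, with a median difference of 1.45. These were Meox2, Pax9, Foxc1, Foxc2, Uncx and Tbx18. Meox2 was used to choose the cells, so its place in this count and in the next is a description. Foxc1, Foxc2 and Tbx18 were higher in subcluster 4 than in subcluster 1, and Foxc1 and Foxc2 are also on the head mesoderm list. The sclerotome list, which shares 5 of the 6 called somite genes, gave 6 higher and 0 lower among 11 of 14 genes that passed, with Col2a1, a cartilage collagen, as its other member. Foxc1 stood at 89.0, 72.0, 89.4, 93.4 and 96.1 CPM in Foxd1-positive cells of libraries 2 to 6, and at 28.0, 14.5, 34.2, 26.0 and 35.0 CPM in Foxd1-negative cells. The sides did not overlap, and the median difference was 1.60. Tbx18, a T-box factor of the anterior sclerotome and of epicardium, stood at 36.8, 22.3, 46.7, 38.4 and 23.2 CPM against 4.57, 8.70, 9.96, 4.07 and 4.39 CPM. Its sides did not overlap either, and the median difference was 2.03.

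Other members of these lists rested on some of the libraries. Pax9, a sclerotome and pharyngeal factor, stood at 5.75, 0.742, 16.0, 32.1 and 15.1 CPM in Foxd1-positive cells against 0.993, 0.725, 2.92, 1.55 and 2.64 CPM. Library 3 was near 0 on both sides, and the differences ranged from 0.01 to 3.27. Uncx stood at 2.30, 1.48, 6.60, 32.1 and 28.4 CPM in Foxd1-positive cells, highest in libraries 5 and 6, with differences from 0.17 to 2.77. Pax1 stood at 18.4, 0, 13.0, 89.8 and 16.2 CPM against 0, 0, 0.172, 1.36 and 0 CPM. It was not called, because library 3 had no Pax1 UMI on either side, although its median difference was 3.19. Foxc2 differed by 0.07 in library 3, with 10.4 against 9.79 CPM, and by a median of 1.91.

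Meox2 was higher in Foxd1-positive cells, at 77.9, 92.8, 70.7, 108 and 104 CPM against 28.2, 50.1, 25.4, 41.5 and 27.2 CPM, a median difference of 1.40. The rule's Meox minimum bears on both sides, so this and the next gene are a description. Meox1 was not called. It stood at 157, 57.9, 152, 186 and 177 CPM against 136, 92.5, 159, 157 and 142 CPM, with a median of 0.21 and libraries 3 and 4 lower in Foxd1-positive cells. Tcf15 was not called either, at a median of 0.51. Of the 9 dermomyotome genes at or above the level minimum, none was called in either direction, and their median was -0.13. Pax3 stood at 49.5, 17.8, 43.9, 43.9 and 96.1 CPM in Foxd1-positive cells against 81.2, 35.9, 39.2, 133 and 59.2 CPM, with no common direction.

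Several genes of second heart field and lateral plate mesoderm were lower in Foxd1-positive cells. Of 12 that passed the level minimum, 0 were called higher and 6 lower (Isl1, Hand1, Hand2, Gata6, Tbx20 and Fgf10), with a list median of -1.01. Isl1 stood at 5.75, 14.1, 5.19, 11.8 and 5.15 CPM in Foxd1-positive cells against 78.4, 173, 59.6, 71.3 and 76.8 CPM, a median difference of -3.38. The sides did not overlap, and library 3 was highest on both. Tbx20 stood at 5.37, 0, 0.943, 7.25 and 2.21 CPM against 45.9, 87.0, 27.5, 21.1 and 8.97 CPM, a median of -2.70. Fgf10, a growth factor of the second heart field and limb, had a median of -2.03. Members that were not called included Foxf1 at 0.45 and Osr1 at 0.42, both with their highest level in subcluster 8. The list summed to 140 to 486 CPM on the Foxd1-positive side and 326 to 606 CPM on the other, lower in each library.

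Genes of head mesoderm went both ways. Of 12 at or above the level minimum, Foxc1 and Foxc2 were called higher and Tcf21, Lhx2 and Isl1 lower. Lhx2 stood at 7.29, 8.91, 0.472, 1.09 and 0 CPM in Foxd1-positive cells against 22.2, 82.3, 9.79, 25.2 and 23.6 CPM. Tcf21, a factor of facial muscle and epicardial precursors, stood at 11.8 to 60.1 CPM, highest in library 3, against 70.1, 95.8, 81.0, 78.7 and 85.3 CPM. Both had non-overlapping sides, with median differences of -2.95 and -1.91. Tbx1 was not called, at 110, 79.4, 120, 70.8 and 86.2 CPM against 97.9, 82.7, 102, 76.9 and 98.3 CPM. Tlx1 (Hox11), a homeobox gene of spleen and pharyngeal arch tissue, stood at 5.75, 11.9, 4.01, 1.81 and 1.84 CPM against 60.6, 124, 33.7, 43.4 and 36.9 CPM, a median of -3.19.

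Leaving out every cell with an Isl1 UMI asked how much rests on Isl1-bearing cells, a step added after the data were seen. Then 128 genes were higher and 60 lower, of which 78 and 42 were among those called with all cells. Pdlim3, a muscle protein gene, had the most negative median with all cells, -4.07. It stood at 0.767, 0.742, 0.707, 10.0 and 2.21 CPM against 58.2, 132, 43.4, 32.2 and 17.4 CPM, and its median without Isl1-bearing cells was -2.30.

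Several structural genes of connective tissue were higher in Foxd1-positive cells. Of 20 extracellular matrix genes at or above the level minimum, 8 were called higher and 0 lower, with a median of 0.92 (Col1a1, Col1a2, Col2a1, Col3a1, Col5a1, Vcan, Lum and Dcn). Col3a1, a fibrillar collagen, stood at 317, 287, 335, 332 and 363 CPM against 119, 124, 140, 114 and 116 CPM. Col1a1 stood at 83.2, 92.8, 69.3, 70.2 and 71.1 CPM against 28.7 to 42.1 CPM. Vcan, the large proteoglycan of embryonic mesenchyme, stood at 446, 448, 492, 484 and 386 CPM against 217, 310, 205, 150 and 194 CPM. The sides were separate for all 3 genes. Lum had a median of 2.50, at 19.2, 8.91, 61.8, 51.5 and 33.1 CPM against 2.78, 2.18, 1.72, 1.36 and 4.22 CPM, and the matrix list as a whole was higher in each library.

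Of the signalling lists, the retinoic acid genes included 1 called gene. Crabp1 was lower, at 207, 150, 308, 117 and 160 CPM against 771, 375, 873, 608 and 955 CPM, a median of -1.88. Its highest levels were in subclusters 5 and 10 (1800 and 2780 CPM), which also hold Tfap2b and Hbb-y and few Foxd1-positive cells. Without them it stood at 17.0 to 200 CPM against 241 to 391 CPM, still lower in each library, with a median of -1.48. Aldh1a2 was not called, at 20.7, 143, 33.0, 42.2 and 24.7 CPM against 11.1, 7.98, 17.9, 15.5 and 15.6 CPM, although its sides did not overlap, since the median of 0.82 was under 1. None of 11 hedgehog genes and none of 5 Notch genes was called. The hedgehog receptor and target Ptch1 had a median of 0.97, just under the limit, and stood at 120, 194, 167, 177 and 144 CPM against 96.5, 78.7, 84.5, 87.6 and 94.8 CPM.

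Of 12 FGF genes, 3 were called lower, the ligands Fgf10 and Fgf9 and the target Etv5, and 0 higher. Of 15 Wnt genes, Sfrp2, a secreted modulator, and Rspo2, an activator, were called higher and the inhibitor Dkk1 lower. Of 14 BMP genes the target Msx1 was called lower. Cxcl12, the chemokine that guides migrating cells, stood at 194, 112, 226, 239 and 231 CPM against 93.3, 64.2, 57.7, 67.6 and 56.4 CPM, a median of 1.79 with no overlap. Its scavenging receptor Ackr3 was also called higher (1.29). The guidance ligand Ntn1 was called higher (1.05) and the netrin receptor Unc5c lower (-1.78), at 68.6, 215, 100, 144 and 108 CPM against 317, 557, 349, 341 and 391 CPM. These last 3 genes and Cxcl12 were singled out after their values were seen.

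Among forkhead genes Foxc1, Foxc2 and Foxf2 were called higher and Foxl2 lower, of 13 at or above the level minimum. Foxf2 stood at 10.7, 18.6, 17.7, 16.6 and 15.1 CPM against 4.57, 1.45, 2.40, 1.94 and 2.81 CPM. Among T-box genes Tbx15 and Tbx18 were called higher and Tbx20 lower, of 7. Wt1, known from kidney and epicardial mesoderm, was called higher (1.78), at 22.6, 15.6, 18.9, 28.0 and 16.2 CPM against 5.16, 5.08, 3.26, 4.84 and 3.34 CPM.

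Among genes called with 1 sign in every library, the 15 largest differences upward were led by Il1rapl1, a synaptic adhesion gene, at 28.8, 98.0, 24.5, 31.9 and 22.5 CPM against 2.58, 2.54, 1.89, 7.56 and 5.10 CPM (median 2.75). After it and Lum came Adamtsl1 (2.48), Sparcl1 (2.40), 1700018A04Rik (2.33), Adamts18 (2.30), Saa2 (2.26), Gm5127 (2.19), Foxf2 (2.16), Ryr3 (2.11), Spock3 (2.06), Ano4 (2.05), Tbx18, Gm2694 (2.03) and Cxcl13 (1.95). The Cxcl13 level in Foxd1-positive cells was 8.82, 180, 21.5, 26.8 and 31.7 CPM, highest in library 3. After Pdlim3, Isl1, Tlx1 and Lhx2, the lower genes included Shox2 (-2.85), Plcxd3 (-2.72), Tbx20 (-2.70), Gfra1 (-2.52), Tfap2b (-2.52), Cpne4 (-2.44), Spock1 (-2.39), Sema6d (-2.38), Kazald1 (-2.37) and Moxd1 (-2.35). Tfap2b differed by -0.03 in library 3, at 7.42 against 7.62 CPM.

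**Figure D5:**
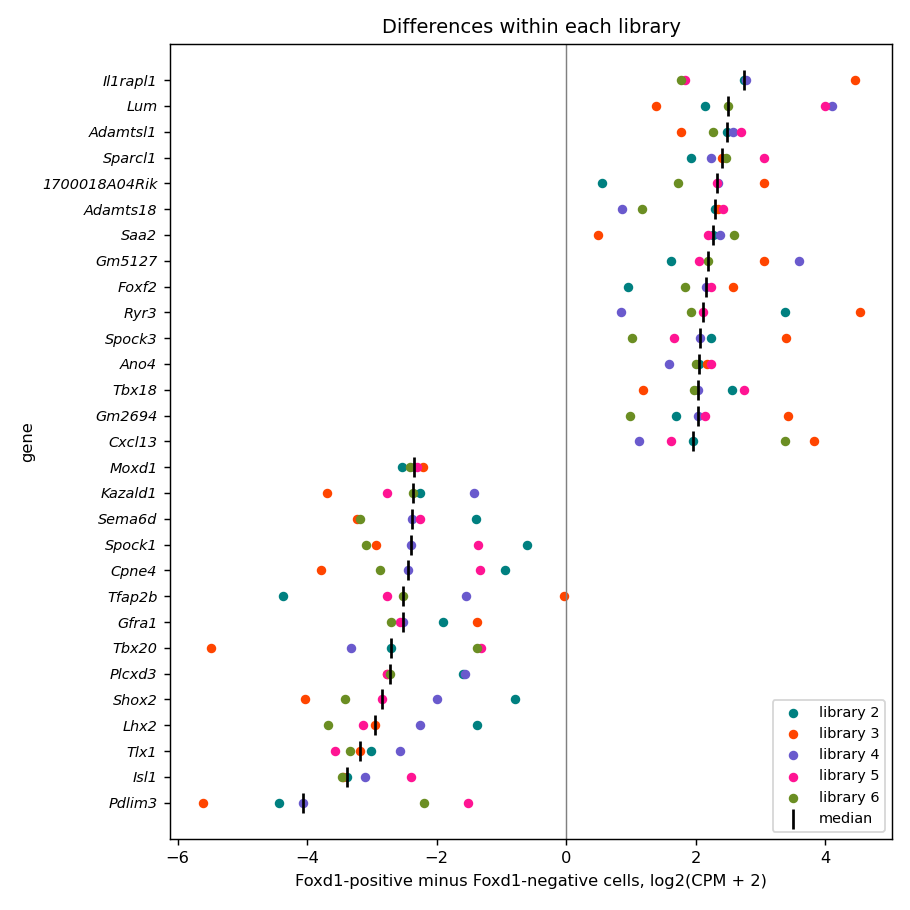
Difference between Foxd1-positive and Foxd1-negative Meox-selected cells for the named genes with the largest differences, on the log2(CPM + 2) scale, with a point for each of libraries 2 to 6 and a bar at the median. Each plotted gene has the same sign in the 5 libraries, from -4.07 for Pdlim3 to 2.75 for Il1rapl1 at the median.

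Detection was also compared at equal depth, in cells pooled over the 6 libraries, which add Foxd1-positive cells unequally. In cells thinned to 10000 UMIs, with Foxd1 called on the thinned counts, Foxc1 was found in 59.5% of Foxd1-positive and 23.4% of Foxd1-negative cells. Cxcl12 was found in 77.1 and 32.9%, Tbx18 in 27.8 and 6.02%, and Pax9 in 15.8 and 2.33%. Isl1 was found in 2.31 and 29.0%, Tcf21 in 10.2 and 38.2%, Tlx1 in 1.54 and 17.7%, and Lhx2 in 0.578 and 10.3%. Among genes not called in the sums, Tcf15 was found in 31.2 and 13.6%, Pax1 in 19.7 and 0.874%, and Pax3 in 5.97 and 13.0%. Meox1 was found in 72.5 and 69.9%, and Tbx1 in 43.9 and 45.5%.

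Markers of other cell types on the 2 sides were as follows. The 13 genes of neural crest mesenchyme summed to 545 to 728 CPM in Foxd1-positive and 516 to 665 CPM in Foxd1-negative cells. The sum was higher in Foxd1-positive cells in 4 of the 5 libraries. Of these 13 genes 7 passed the level minimum, with 0 called higher, Tfap2b and Msx1 called lower and a median of -0.82. The 8 erythroid genes summed to 86.5 to 8180 CPM (median 148) and from 79.8 to 10800 CPM. The highest values came from few libraries, since Hbb-y was above 1000 CPM in library 2 on the Foxd1-positive side (3800 CPM) and in libraries 3 and 5 on the other (4670 and 2350 CPM). Endothelial genes summed to 19.2 to 54.9 and 29.0 to 38.5 CPM, and cardiomyocyte genes to 28.4 to 45.3 and 24.3 to 51.2 CPM. The 8 neuron genes, which include Isl1, summed to 28.0 to 71.3 and 117 to 254 CPM, lower in each library, with Elavl4 also called lower. The 12 myogenic genes summed to 140 to 213 and 265 to 316 CPM, and the 10 genes of intermediate mesoderm and nephric tissue to 160 to 320 and 345 to 432 CPM. Both were lower in each library with no overlap, with Tcf21 called lower in the first list and Wt1 called higher in the second. The second sum is mostly Eya1, which is also on the dermomyotome list and stood at 219 CPM in Meox-selected cells. The nephric genes Pax2, Pax8 and Lhx1 stood at 0.253, 0.317 and 0.401 CPM there, so the sum is no measure of nephric tissue. The crest, erythroid, endothelial and cardiomyocyte ranges overlapped. Without subclusters 5 and 10, which have the highest Tfap2b and Hbb-y levels, 94 genes were higher and 150 lower, of which 81 and 100 were called with them.

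Foxd1 was set beside 3 other groups of retained cells, with no test and within each library, since the groups draw on the libraries unequally. Each group had fewer than 3 Meox UMIs and met the rule's Epcam, Tnnt2 and Pecam1 limits. At least 3 UMIs of Dlx1 plus Dlx2, at least 3 of Isl1 plus Foxf1, or at least 2 of Myf5, Myod1 and Musk were needed. Foxd1 detection was higher at high Meox counts in the pooled steps, so the Meox limit bears on this comparison. In libraries 1 to 6 Foxd1 stood at 7.50, 83.9, 63.1, 124, 195 and 83.9 CPM in Meox-selected cells. It stood at 9.76 to 33.3 CPM (28.3 CPM in library 1) in 3959 cells with crest Dlx transcripts, and at 8.90, 17.8, 44.5, 66.8, 65.2 and 56.7 CPM in 6330 cells with Isl1 or Foxf1. Meox-selected cells thus held more Foxd1 than both in libraries 2 to 6. In library 1 their value was below both, but its 95% interval, 4.99 to 10.8 CPM, held the 8.90 CPM of the cells with Isl1 or Foxf1. In 248 cells with myogenic transcripts Foxd1 was at most 10.2 CPM in any library. Tbx1 stood at 159, 170, 91.5, 242, 204 and 204 CPM in these myogenic cells and at 104, 102, 81.6, 109, 73.2 and 94.4 CPM in Meox-selected ones, lower in each library. Tcf15 had no common order between them.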

How the data were processed

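Droplet single-cell RNA libraries were sequenced and counted by the authors, who deposited 1 matrix of raw UMI counts for 32285 genes. The submitters' processing notes name CASAVA 1.8, Cell Ranger 5.0.0, Seurat 4 and genome build mm10. The labels' descriptions name a chromatin assay, while titles and kit name RNA, and the counts were treated as RNA. The choice of cells, the gene lists and the comparisons were made with earlier results of these data known.

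From the deposited counts, UMIs were summed per library and side, scaled to CPM and compared as log2(CPM + 2). CPM sums depend on the other transcripts of a cell. Named genes were the rule's own genes, the 15 largest differences in each direction by Foxd1, the 20 largest against other cells, called or most abundant genes of each list, and leading genes of each subcluster. Subclusters came from 2000 variable genes, 30 principal components, 20 neighbours and leidenalg 0.10.2 at resolution 0.5, with sex-linked genes left out. Doublets were scored with 2 simulated doublets per cell, and the highest scores were marked at 0.8% per 1000 cells. Python 3.11.15, numpy 2.4.6, scipy 1.17.1 and scikit-learn 1.9.0 were used, and the difference script was tested on simulated data. Of the gene identifiers, 32235 were found in GENCODE M21 (GRCm38). The planned test of STZ against vehicle was not run. Some named genes are not reported here.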

Additional observations from a re-analysis of the deposited data

How the results depend on the processing

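No paired analysis was possible because the barcode suffixes could not be tied to the labels' replicate numbers. The sides by Foxd1 were compared within each library, as values with no test. The values rest on detection per cell, so depth limits the low genes, and a count of 0 allows up to 3 UMIs. The number of Meox-selected cells was 2469 with a Meox minimum of 2, 794 with 5, and 3165 without limits on other lineages. Their Foxd1 share was then 35.3, 49.6 and 26.6%, and 33.5% in thinned cells. Leaving out each library in turn gave 32.4 to 43.0%, the lowest without library 5. The 94 higher genes became 49 with a Meox minimum of 2, and 21 without limits on other lineages, when 46 were lower. Both settings also brought library 1 in, and with libraries 2 to 6 kept, as chosen after the data were seen, they gave 80 and 67 higher and 115 and 42 lower genes. The count of lower genes (1.17% of those tested) became 163 with no level minimum, 63 at 20 CPM, and 60 without cells holding an Isl1 UMI. Left-out libraries gave 86 to 120 higher and up to 124 lower genes. The 12 subclusters became 10 at resolution 0.3 and 14 at 1, and 10 to 12 with a library left out. CPM without mitochondrial, ribosomal protein and hemoglobin genes gave 92 higher and 142 lower. For the 30 called genes with the largest differences, over the 24 settings that can move them, 646 of 720 values lay within 1 SD of the reported one, 74 moved and 0 reversed. The SD is that of each gene's difference over libraries 2 to 6. These genes were chosen for 1 sign in every library. Leaving out a library or changing the constant added to CPM therefore could not reverse them, and these counts are a description. The cause of these shifts was not tested.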

Other observations

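Meox-selected cells carried anterior Hox genes. In Foxd1-positive and Foxd1-negative cells Hoxb2 stood at 110 and 99.6 CPM, Hoxb3 at 78.7 and 65.9 CPM and Hoxb4 at 64.2 and 70.9 CPM. These values pool the 6 libraries, library 1 included, which add Foxd1-positive cells unequally, so they are not differences within a library. Of the 39 Hox genes, 12 passed the level minimum, 13 had no UMI in these cells, and Hoxb5 alone was called between the sides, lower in Foxd1-positive cells (-1.29). Hox levels differed between subclusters. Hoxb3 stood at 99.2 CPM in subcluster 1 and 53.8 CPM in subcluster 9, at 41.5 CPM in subcluster 4, at 4.03 CPM in subcluster 7, and had no UMI in subcluster 12.

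None of the 9 genes of glucose uptake and glycolysis at or above the level minimum was called between the sides, and their median was -0.30. The summed level of the 12 genes, of which Ldha and Pgk1 are the most abundant, was 1120 to 1400 CPM against 1560 to 2020 CPM, lower in each of the 5 libraries. Ldha, which makes lactate, stood at 636, 582, 796, 712 and 762 CPM in Foxd1-positive cells of libraries 2 to 6 against 1100, 868, 1220, 1010 and 1180 CPM (median -0.61). The differences of Pgk1, Pfkl and the glucose transporter gene Slc2a1 were -0.47, -0.59 and -0.11. Of the 17 genes of S phase and the 17 of G2 and M phase, none was called, with list medians of 0.03 and 0.06. The treatment of the libraries is not known, so none of this bears on maternal glucose.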
